A study of Mus musculus with 8 samples.

Results

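Serpins are a superfamily of serine protease inhibitors and their non-inhibitory relatives, and the inter-alpha-trypsin inhibitor heavy chains, encoded by the Itih genes, are secreted proteins that bind hyaluronan. The genes described here are those of the deposited expression table whose symbol is a serpin of clades A to I or Itih1 to Itih5. There were 69 of them among 55401 genes, 64 serpins and 5 Itih chains, and the 29 with a mean FPKM (fragments per kilobase scaled to library size, as the authors deposited it) of at least 0.1 over the 8 libraries were tested. The tested members were thus chosen by their measured mean FPKM, which ignores the groups, and the family was picked for description with the treatment results known. The members nearest the limit were Serpina9 and Serpinb6c inside it (mean FPKM 0.161 and 0.135) and Serpina3c and Serpina3m outside it (0.0919 and 0.0913). Of the 40 members under the limit 14 had a count of 0 in every library.

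The libraries came from 8 mouse hypothalami taken on postnatal day 19. PLX3397, a kinase inhibitor that blocks the receptor CSF1R, on which microglia depend, was given by gavage to 4 pups from postnatal day 9 to day 15, and 4 pups received vehicle. Each group held 2 females (F1, F2) and 2 males (M1, M2). Genotype and strain were not stated in the labels, the compound also acts on other receptor kinases, the sample tissue field names the brain, and p-values measure only the spread between these samples.

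Total counts were 54115300 to 67487391 per library. All 10 hypothalamic marker genes, among them Avp, Oxt, Pmch and Agrp, were detected in all 8 libraries. The 12 microglial markers summed to 333 to 346 CPM (read counts scaled to library size with TMM factors) in vehicle and 24.8 to 52.4 CPM in PLX3397 libraries, and 10 of them fell. PLX3397 M2 had the lowest microglial sum, with C1qa, Fcrls and Siglech at 0. Vehicle F1 held 3108 CPM of 8 pituitary markers, against 4.87 to 14.5 CPM elsewhere. Vehicle M2 held 65.7 CPM of the albumin gene Alb, against 3.62 to 19.1 CPM elsewhere. Oligodendrocyte markers were lower, at 6326 to 9588 CPM in vehicle and 2145 to 4866 CPM in PLX3397 libraries, with 4 of 10 passing the test.

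An inhibitory serpin offers its exposed loop as bait to a protease, is cut, and then springs into a new fold that traps the enzyme in a covalent complex. In the brain these inhibitors hold back tissue plasminogen activator, thrombin, complement proteases and the proteases of immune granules, while a few serpins inhibit nothing and act as chaperones or signals. Heavy chains of the inter-alpha-trypsin inhibitor are passed from the small inhibitor bikunin to hyaluronan, the sugar polymer that forms the scaffold of perineuronal nets, and so cross-link the matrix.

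A neuronal serpin, an astrocyte serpin, the complement C1 inhibitor and a neighbouring pair of heavy chains stood higher after PLX3397. Of the 29 tested members, 5 (17.2%) passed the test between treatments, against 1.48% of the 22423 genes tested (edgeR, adjusted p under 0.05). All 5 rose, where 0.205% of all tested genes did, and 0 fell. The same number, 5, had an unadjusted p under 0.05, against 14.4% of all tested genes, and 0 of those were negative. They were Serpini1, Serpina3n, Serping1, Itih5 and Itih2, with increases of 1.31-fold to 1.56-fold. The group values did not overlap in 4 of the 29 members, all higher after PLX3397, against 4.51% of all tested genes in that direction and 5.74% in the other. The median log2 fold change of the tested members was 0.08, against −0.00 for all genes tested, and 16 of 29 were positive against 49% of all genes. All 5 were among the 9 members with a mean FPKM of at least 5, a limit chosen after the values were seen. Of the 7897 genes at that level 1.86% were called and 0.418% called higher. DESeq2 called the same 5 members, and 5.81% of the genes it tested. With vehicle F1 and PLX3397 M2 both left out 0 members passed (edgeR), and with single libraries left out 1 to 3 did.

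**Figure D1:**
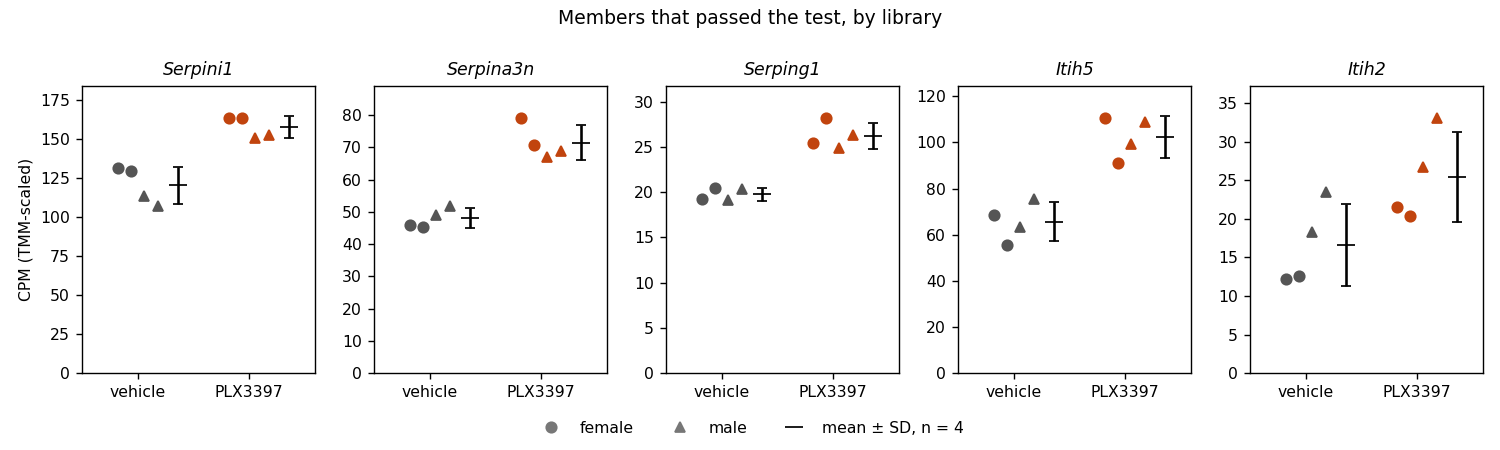
Normalised expression (CPM, vertical axes from 0) of the 5 members that passed the test in each of the 4 vehicle and 4 PLX3397 hypothalami, with circles for females, triangles for males and a bar for mean ± SD. The groups lie apart for Serpini1, Serpina3n, Serping1 and Itih5, and overlap for Itih2, in which males lie above females in both groups.

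Serpini1 encodes neuroserpin, a secreted inhibitor of tissue plasminogen activator made mainly by neurons (ENSMUSG00000027834, chromosome 3, 75557547 to 75643495, mm10, plus strand). Its level was 131, 130.0, 114 and 108 CPM in vehicle F1, F2, M1 and M2. The PLX3397 libraries, in the same order, had 164, 164, 151 and 153 CPM. Every PLX3397 library was above every vehicle library, and in both groups the 2 females were above the 2 males. The mean of 158 ± 6.94 CPM after PLX3397 (SD, n = 4) against 121 ± 11.9 CPM with vehicle (n = 4) was a fitted 1.31-fold rise (log2 fold change 0.39 ± 0.04 SE, edgeR adjusted p = 0.00656). It was the only member that passed in all 8 fits without one library, with log2 fold changes of 0.36 to 0.41.

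The sum of 10 neuronal markers was also higher after PLX3397, at 4344 to 4503 CPM in vehicle and 4623 to 4983 CPM in PLX3397 libraries, and 1 of them, Nefl, rose (log2 fold change 0.18, adjusted p = 0.0445). At an unadjusted p under 0.05 there were 6 higher and 1 lower, and DESeq2 called 4 of the 10, all higher. Relative to that sum Serpini1 stood at 2.48% to 2.97% with vehicle and 3.21% to 3.32% after PLX3397, and the groups stayed apart, at a mean ratio of 1.21. In these bulk tissues more cells of a type and more RNA per cell cannot be told apart. Plat, the gene of tissue plasminogen activator, which neuroserpin inhibits, was 70.4, 72.6, 76.5 and 95.1 CPM in vehicle F1, F2, M1 and M2. It was 66.1, 56.6, 57.8 and 56.5 CPM in the PLX3397 libraries in the same order (log2 fold change −0.40 ± 0.10, adjusted p = 0.136). All 4 PLX3397 values of Plat were below the vehicle values, and the difference did not pass over all genes.

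Serpina3n is a secreted mouse counterpart of alpha-1-antichymotrypsin, an acute-phase inhibitor of granule proteases that astrocytes make when they react to injury (ENSMUSG00000021091, chromosome 12, 104406729 to 104414329, plus strand). It was at 45.9, 45.2, 49.0 and 51.9 CPM in vehicle F1, F2, M1 and M2. It stood at 79.2, 70.8, 66.9 and 68.7 CPM in the PLX3397 libraries in that order, with the groups apart. Its mean of 71.4 ± 5.42 CPM after PLX3397 (SD, n = 4) against 48.0 ± 3.09 CPM with vehicle (n = 4) was a fitted 1.49-fold rise (log2 fold change 0.57 ± 0.07 SE, edgeR adjusted p = 0.0151). Without vehicle F2, vehicle M1 or PLX3397 F2 the call was lost, with adjusted p of 0.0548 to 0.0588, and log2 fold changes over the fits without one library were 0.51 to 0.62.

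The sum of 10 astrocyte markers did not separate the groups, at 3343 to 3974 CPM in vehicle and 3612 to 3849 CPM in PLX3397 libraries. By edgeR 0 of 10 were called, with 1 higher and 1 lower at an unadjusted p under 0.05. These were Aldoc (0.22, edgeR adjusted p = 0.197) and Aqp4 (−0.38, adjusted p = 0.137). DESeq2 called 1, lower, and limma 0. Serpina3n relative to the sum of the astrocyte markers stood at 1.27% to 1.37% with vehicle and 1.78% to 2.06% after PLX3397, with the groups apart. Of 23 tested acute-phase and reactive astrocyte genes 1 rose and 1 fell: ceruloplasmin, Cp (0.30, edgeR adjusted p = 0.0478), and Cd14, a receptor of myeloid cells (−2.86, adjusted p = 0.0213). At an unadjusted edgeR p under 0.05 there were 5 higher and 3 lower, against 14.4% of all tested genes in either direction. DESeq2 called 3 higher and 1 lower, and limma called 1. The complement gene C4b and Ch25h, a cholesterol hydroxylase, had 0.45 and 0.96 (adjusted p = 0.157 and 0.162). Serpina3k, related to the kallikrein-binding serpins, is the nearest tested gene before Serpina3n, at 60.6 kb. The span of Serpina3m, a member under the limit, overlaps Serpina3k on the same strand and ends nearer to Serpina3n. The level of Serpina3k was 2.88 to 9.31 CPM in vehicle and 5.01 to 6.70 CPM in PLX3397 libraries (0.14 ± 0.34, edgeR adjusted p = 0.901). Its highest value was in vehicle M2, the library with the most Alb. Without vehicle M2 its log2 fold change was 0.61 (edgeR adjusted p = 0.355), and without vehicle M1 it was −0.08. Serpina3g was 0.171 to 1.16 CPM and 0.596 to 1.12 CPM (0.24 ± 0.59, adjusted p = 0.902), and Serpina9, another clade A gene, 0.458 to 0.932 CPM and 0.187 to 1.12 CPM (0.10 ± 0.54, adjusted p = 0.963). Serpina3 genes are close copies of one another, so reads may have been split between them in ways the table does not show.

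Serping1 encodes the C1 inhibitor, which stops the proteases C1r and C1s of the classical complement pathway and the kallikrein of the contact system (ENSMUSG00000023224, chromosome 2, 84765387 to 84775444, minus strand). It was at 19.2, 20.4, 19.1 and 20.3 CPM in vehicle F1, F2, M1 and M2, the narrowest spread of the 5 in proportion to its mean. The PLX3397 libraries, in that order, had 25.4, 28.2, 24.9 and 26.3 CPM, all above vehicle. A mean of 26.2 ± 1.46 CPM after PLX3397 (SD, n = 4) against 19.8 ± 0.708 CPM with vehicle (n = 4) was a fitted 1.33-fold rise (log2 fold change 0.41 ± 0.06 SE, edgeR adjusted p = 0.0265). The call held only without PLX3397 F1 (adjusted p = 0.0417) and was lost without any of the other 7 libraries, up to 0.0969, while the log2 fold change stayed between 0.37 and 0.43.

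Of 10 tested genes of the complement and contact proteases that the C1 inhibitor meets, 0 passed (edgeR; 2 at an unadjusted p under 0.05, 1 with DESeq2, 0 with limma). The smallest p belonged to C4b (0.45, edgeR adjusted p = 0.157), which is also in the acute-phase list above. It was 46.1 to 61.1 CPM in vehicle and 59.7 to 81.1 CPM in PLX3397 libraries. C1ra, the C1r protease gene, was 0.978 to 1.88 CPM in vehicle and 1.59 to 2.15 CPM in PLX3397 libraries (0.54 ± 0.27, edgeR adjusted p = 0.431). C1rl and C1s2 had −0.66 and 0.84 (adjusted p = 0.309 and 0.361). Serping1 is also expressed by fibroblasts of the brain coverings, whose 12 markers summed to 198 to 286 CPM in vehicle and 266 to 335 CPM in PLX3397 libraries. Against that sum Serping1 stood at 7.10% to 10.3% with vehicle and 7.85% to 10.6% after PLX3397, and the groups overlapped, at a mean ratio of 1.05. Relative to the astrocyte sum it was 0.509% to 0.575% and 0.660% to 0.746%, and the groups lay apart.

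The heavy chain genes Itih5 and Itih2 are neighbours on chromosome 2 and rose by nearly the same factor. Itih5 (ENSMUSG00000025780, 10153571 to 10256529, plus strand) encodes a heavy chain of extracellular matrix, and Itih2 (ENSMUSG00000037254, 10094593 to 10131075, minus strand) one of the classical plasma heavy chains. Their annotated starts face away from each other across 22.5 kb, with no other tested gene between them. The next tested genes outward were Kin, 1.8 kb from Itih2 (0.19, edgeR adjusted p = 0.575), and Sfmbt2, 114.0 kb from Itih5 (0.10, adjusted p = 0.811).

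Itih5 was at 68.4, 55.4, 63.4 and 75.6 CPM in vehicle F1, F2, M1 and M2 and at 111, 90.9, 99.3 and 109 CPM in the PLX3397 libraries in that order. The groups did not overlap. The mean of 102 ± 9.17 CPM after PLX3397 (SD, n = 4) against 65.7 ± 8.50 CPM with vehicle (n = 4) was a fitted 1.56-fold rise (log2 fold change 0.64 ± 0.10 SE, edgeR adjusted p = 0.0303). The call was lost without any single library, with adjusted p of 0.0529 to 0.103 and log2 fold changes of 0.57 to 0.71.

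Itih2 was at 12.2, 12.6, 18.3 and 23.4 CPM in vehicle F1, F2, M1 and M2 and at 21.5, 20.3, 26.7 and 33.1 CPM in the PLX3397 libraries in that order. The groups overlapped, since vehicle M2 lay above both PLX3397 females, while within each sex both PLX3397 values were above both vehicle values. Means of 25.4 ± 5.83 CPM after PLX3397 (SD, n = 4) against 16.6 ± 5.34 CPM with vehicle (n = 4) overlapped in spread, and the fit with sex as a covariate gave a 1.56-fold rise (log2 fold change 0.64 ± 0.11 SE, edgeR adjusted p = 0.0419). The call held without vehicle M2 or PLX3397 M1 (adjusted p down to 0.0355), was lost without any of the other 6 libraries, up to 0.131, and was lost without the sex term.

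Of the 12 fibroblast markers of the brain coverings 2, Slc6a13 and Tbx18, rose (0.74 and 1.13, edgeR adjusted p = 0.0265 and 0.0324), 0 fell and none was at 0. DESeq2 called 7 of the 12, all higher, and 10 of the 12 had a positive log2 fold change, but their sums overlapped between the groups. Against their sum Itih5 stood at 24.9% to 31.2% with vehicle and 32.4% to 36.1% after PLX3397, with the groups apart at a mean ratio of 1.24. Itih2 was 5.55% to 8.19% and 7.01% to 9.87% of it, overlapping, also at a mean ratio of 1.24. These ratios depend on which markers are summed. Col1a2 averaged 63.4 CPM with vehicle and 62.9 CPM after PLX3397 (−0.01), and Col1a1 34.3 and 27.6 CPM (−0.31). Dcn, Lum, Tbx18 and Slc6a13 had larger log2 fold changes than Itih5 (0.88, 1.17, 1.13 and 0.74 against 0.64), and the other markers smaller ones. In vessels, which also express Itih5, the marker sums overlapped between the groups: 10 endothelial genes summed to 283 to 339 and 316 to 349 CPM, and 10 pericyte and smooth muscle genes to 238 to 306 and 245 to 282 CPM. Of the endothelial genes Flt1, a receptor of vascular growth factor, rose (0.25, edgeR adjusted p = 0.04999). Its values were 41.2 to 45.2 CPM in vehicle and 49.9 to 53.1 CPM in PLX3397 libraries. DESeq2 called 2 endothelial genes, both higher. The list went both ways, with 5 of 10 positive and a median log2 fold change of −0.09. At an unadjusted edgeR p under 0.05 there were 3 higher and 2 lower, the latter Kdr and Emcn (−0.26 and −0.33). Relative to these sums Itih5 was 19.5% to 23.3% against 27.9% to 34.2% and 20.7% to 28.7% against 35.2% to 44.4%, with no overlap in either. What share of the rise of either gene goes with these cells was not tested beyond these ratios.

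Bases before the RefSeq transcription start are shown for 4 of the 5 members that rose, chosen because they passed the test. Whether these genes share any control was not tested. The sequences are RefSeq promoters of build GRCm38.p6 (mm10), 5′ to 3′ on the gene's strand, 250 bases each. Serping1 is named only. Their positions are chr3:75557243-75557492 (Serpini1, plus strand), chr12:104406458-104406707 (Serpina3n, plus), chr2:10153293-10153542 (Itih5, plus) and chr2:10130684-10130933 (Itih2, minus), and no exon of GENCODE vM21 overlaps them. The RefSeq start of Itih2 lies inside the span given above, so its window lies downstream of the start in the deposited table. The promoter records run on past the RefSeq start, and the last bases of the Serpini1 record were in no vM21 transcript of that gene. The start of Serpini1 in the deposited table, 75557547, lies downstream of its RefSeq start. Capitals mark matches, on either strand, to the motifs searched.
Serpini1: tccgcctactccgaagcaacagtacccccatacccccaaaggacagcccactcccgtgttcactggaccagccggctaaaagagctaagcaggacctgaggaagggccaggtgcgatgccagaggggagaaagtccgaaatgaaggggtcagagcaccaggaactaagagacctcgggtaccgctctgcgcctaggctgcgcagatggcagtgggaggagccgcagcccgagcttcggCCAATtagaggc
Serpina3n: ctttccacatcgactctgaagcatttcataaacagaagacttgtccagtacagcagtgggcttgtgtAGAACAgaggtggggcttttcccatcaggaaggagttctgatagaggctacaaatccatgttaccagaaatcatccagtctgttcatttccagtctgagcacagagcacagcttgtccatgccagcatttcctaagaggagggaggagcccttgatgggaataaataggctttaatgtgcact
Itih5: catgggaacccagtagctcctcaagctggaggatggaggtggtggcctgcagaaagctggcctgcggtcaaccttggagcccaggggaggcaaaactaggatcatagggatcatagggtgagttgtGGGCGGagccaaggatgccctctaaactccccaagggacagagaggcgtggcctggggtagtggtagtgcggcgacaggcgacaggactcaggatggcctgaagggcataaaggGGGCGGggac
Itih2: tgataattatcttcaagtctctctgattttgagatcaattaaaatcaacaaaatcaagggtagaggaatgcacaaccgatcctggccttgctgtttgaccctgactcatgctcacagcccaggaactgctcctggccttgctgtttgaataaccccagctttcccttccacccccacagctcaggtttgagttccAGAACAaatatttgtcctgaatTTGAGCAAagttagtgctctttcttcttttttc
The motifs were the TATA box TATAAA, the CCAAT box CCAAT, the GC box GGGCGG, the STAT motif TTCNNNGAA, the glucocorticoid half-site AGAACA and the C/EBP motif TTGCNNAA. Serpini1 held a CCAAT box 12 bases before the start, and 33.8% of 32851 promoter windows of that length hold one. Itih5 held 2 GC boxes, 124 and 10 bases before the start (32.7% of windows hold one). Serpina3n held an AGAACA half-site at 183 bases and Itih2 one at 55 bases (16.1% of windows), and Itih2 also a C/EBP match on the other strand at 33 bases (9.56%). The TATA and STAT letters (12.4% and 7.02% of windows) were in none of the 4. No motif was in all 4 windows, and the GC content was 61.2% in Serpini1 and Itih5, 46.4% in Serpina3n and 43.2% in Itih2, against a median of 52.4% over all windows. A match describes the letters only.

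Itih3, a heavy chain made by astrocytes, had the highest level per length of all members, with a mean FPKM of 65.0, ahead of Serpine2 (27.8) and Serpina3n (25.3). Its level was 223, 236, 243 and 279 CPM in vehicle F1, F2, M1 and M2 and 324, 331, 286 and 240 CPM in PLX3397 F1, F2, M1 and M2 (0.26 ± 0.11, edgeR adjusted p = 0.352). PLX3397 F1, F2 and M1 were above every vehicle library, while PLX3397 M2 was below vehicle M1 and M2. Itih4, a heavy chain that kallikrein cuts and that carries no bikunin, was at 3.02 CPM in vehicle F1 and 0.627 to 1.10 CPM in the other 3 vehicle libraries, against 0.390 to 0.779 CPM after PLX3397 (−1.21 ± 0.57, adjusted p = 0.393). Without vehicle F1, the library with pituitary transcripts, its log2 fold change was −0.48. Itih1 was under the limit, with counts of 4 to 12 in vehicle and 0 to 4 in PLX3397 libraries.

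Of 18 tested genes that work with the heavy chains on hyaluronan 2 fell and 0 rose: Cemip2, named for hyaluronan breakdown (−1.02, edgeR adjusted p = 0.00139), and Vcan, versican (−1.26, adjusted p = 0.00584). At an unadjusted edgeR p under 0.05 there were 1 higher and 7 lower, against 14.4% of all tested genes in either direction. DESeq2 called 3, all lower, and limma called 3. Bcan, brevican, and the link protein gene Hapln1 had −0.41 and −0.30 (adjusted p = 0.0566 and 0.194). Ambp, which encodes bikunin, was 0.350 to 2.26 CPM in vehicle and 0.624 to 1.14 CPM in PLX3397 libraries (−0.41 ± 0.53, adjusted p = 0.800). Tnfaip6, which encodes the protein TSG-6 that moves heavy chains onto hyaluronan, was 1.91 to 2.51 CPM in vehicle and 1.14 to 2.01 CPM after PLX3397 (−0.65 ± 0.23, adjusted p = 0.268). The summed level of the list was 736 to 839 CPM in vehicle and 610 to 687 CPM in PLX3397 libraries. Vcan is also in the oligodendrocyte precursor list, 8 of whose 10 genes fell, and its part in this was not tested.

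Serpine2 encodes protease nexin-1, a glial inhibitor of thrombin and plasminogen activators, and was among the most abundant members. It was at 231, 258, 274 and 295 CPM in vehicle F1, F2, M1 and M2 and at 293, 257, 254 and 244 CPM in the PLX3397 libraries in that order. The groups overlapped (−0.01 ± 0.09, edgeR adjusted p = 0.979). Its sign depended on which library was left out.

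The plasminogen and thrombin system had 0 calls among 21 tested genes (edgeR; 3 higher and 5 lower at an unadjusted p under 0.05, 3 with DESeq2, 1 with limma). The smallest p belonged to Lrp8, a receptor of reelin (0.23, edgeR adjusted p = 0.0940), followed by Plat and by the fibrinogen genes Fga and Fgg (−1.54 and −1.67, adjusted p = 0.210 and 0.263). Fga was at 16.7 CPM in vehicle F1 and 10.4 CPM in vehicle M2, the libraries with pituitary and albumin transcripts, against 3.98 and 4.82 CPM in the other vehicle libraries and 2.43 to 4.22 CPM after PLX3397. Fgg likewise had 3.68 and 4.46 CPM in vehicle F1 and M2 against 0.646 and 1.25 CPM in the other vehicle libraries.

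Serpinh1 encodes HSP47, a chaperone of the endoplasmic reticulum that folds collagen and inhibits no protease. It was at 50.9, 39.6, 52.5 and 40.0 CPM in vehicle F1, F2, M1 and M2 and at 62.7, 49.4, 46.6 and 37.1 CPM in PLX3397 F1, F2, M1 and M2 (0.08 ± 0.16, edgeR adjusted p = 0.877). The groups overlapped, with the highest and the lowest value both in PLX3397 libraries. Of 25 collagens and collagen-folding genes Col15a1 rose (0.82, edgeR adjusted p = 0.0353) and 0 fell, while Col18a1, Plod1 and P4ha2 had 0.48, −0.32 and 0.28 (adjusted p = 0.109, 0.116 and 0.156). At an unadjusted edgeR p under 0.05 there were 6 higher and 1 lower, against 14.4% of all tested genes in either direction. DESeq2 called 4 higher and 1 lower, and limma called 1. Serpinf1, the non-inhibitory growth factor PEDF, was 12.2 to 17.6 CPM in vehicle, highest in F1, and 11.7 to 15.6 CPM after PLX3397 (−0.07 ± 0.15, adjusted p = 0.886). Its sign turned to 0.08 without vehicle F1.

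**Figure D2:**
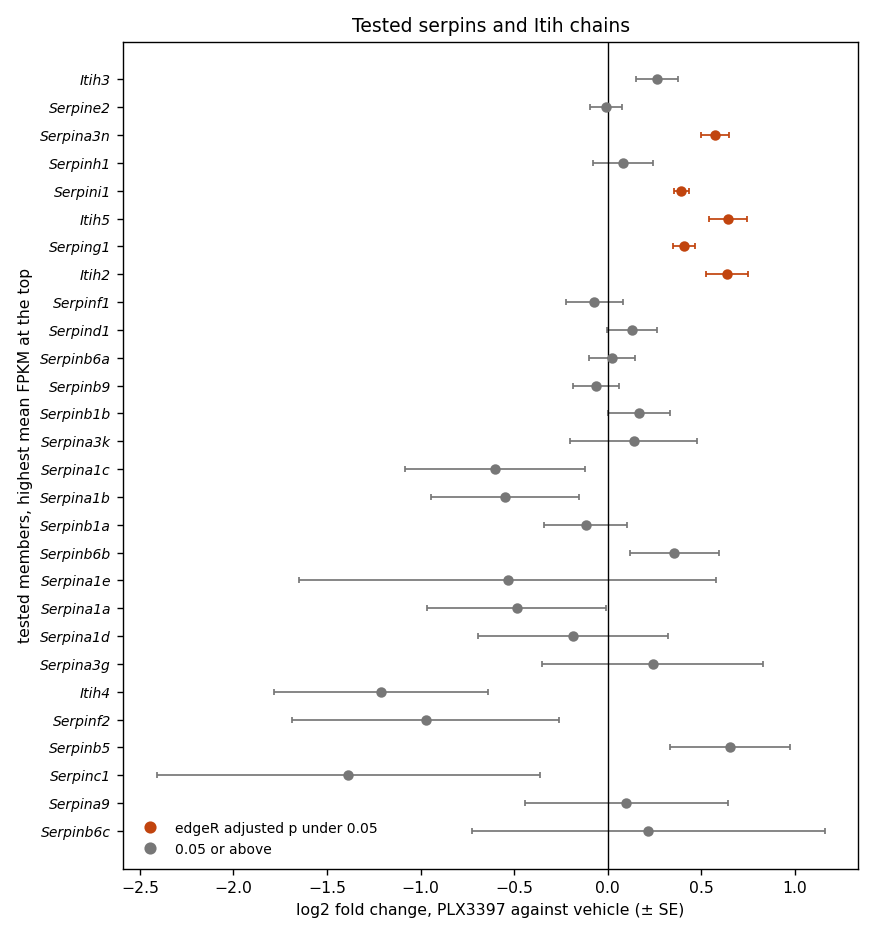
Log2 fold changes of 28 of the 29 tested members, PLX3397 against vehicle (horizontal axis, points with SE from edgeR), ordered by mean FPKM from the top. The 5 members in orange passed the test, all to the right of 0 and all among the upper 8, and the widest errors belong to low members such as Serpinc1 and Serpina1e.

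Clade B serpins lack a secretion signal and guard the inside of cells against proteases from lysosomes and granules. Of 28 members 7 were tested and 0 passed, with log2 fold changes of −0.12 to 0.66 and edgeR adjusted p from 0.413 to 0.963. Serpinb6a was 17.8 to 23.7 CPM in vehicle and 17.2 to 22.9 CPM in PLX3397 libraries (0.02 ± 0.12, adjusted p = 0.963). Its annotated span overlaps Ripk1, Nqo2 and 1110046J04Rik on the other strand, so part of its counts may be theirs. Serpinb9, a granzyme B inhibitor, was 9.32 to 12.6 CPM and 9.16 to 11.8 CPM (−0.06 ± 0.12, adjusted p = 0.880). Serpinb1b, related to inhibitors of neutrophil elastase, was 4.48 to 6.08 CPM and 4.90 to 7.37 CPM (0.16 ± 0.17, adjusted p = 0.727). In all 3 the groups overlapped. The other 4, Serpinb1a, Serpinb6b, Serpinb5 and Serpinb6c, reached at most 3.22 CPM in any library.

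Among proteases that clade B serpins and Serpina3n are known to trap, the gene of granzyme B, Gzmb, had a count of 0 in all 8 libraries, which allows 0.0445 to 0.0554 CPM for counting error only. Of 18 granule and related serine protease genes 12 were tested and 0 passed (edgeR; 1 at an unadjusted p under 0.05, 1 with DESeq2, 0 with limma). The smallest p belonged to the membrane protease gene Tmprss5 (−1.79, adjusted p = 0.189), then Gzmm (0.56, adjusted p = 0.396) and the mast cell tryptase gene Tpsb2 (−0.9965, adjusted p = 0.401). The other extracellular protease inhibitors, 23 tested genes with 15 positive, also had 0 calls (edgeR; 3 at an unadjusted p under 0.05, 1 with DESeq2, 0 with limma). Among them Wfikkn2, a multidomain inhibitor, was 3.78 ± 0.713 CPM in vehicle and 7.98 ± 3.19 CPM after PLX3397 (SD, n = 4 each; 1.09 ± 0.30, adjusted p = 0.163). Spock1, Spock3 and Spock2, secreted proteoglycans, had 0.10, 0.18 and 0.07 (adjusted p = 0.263 to 0.399).

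The serpins of blood plasma, which the liver makes, were low, and their highest values came from single libraries. Serpina1a to Serpina1e, 5 near-identical copies of the alpha-1-antitrypsin gene on chromosome 12, cannot be told apart by reads with certainty, so their sum is given first. It was 7.10, 7.02, 5.57 and 25.5 CPM in vehicle F1, F2, M1 and M2. The PLX3397 libraries, in that order, had 6.77, 7.43, 7.47 and 8.06 CPM, so that vehicle M2 alone stood apart. Serpinc1, antithrombin, was at 8.28 CPM in vehicle M2 and 0.564 to 0.696 CPM in the other vehicle libraries, against 0.361 to 0.874 CPM after PLX3397. Vehicle M2 was also the library with the most Alb, 65.7 CPM.

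None of these genes passed. The log2 fold changes of the 5 copies ran from −0.60 for Serpina1c (edgeR adjusted p = 0.643) and −0.55 for Serpina1b (adjusted p = 0.600) to −0.19 for Serpina1d, and that of Serpinc1 was −1.39 ± 1.02 (adjusted p = 0.611). Without vehicle M2 they were 0.02 for Serpina1c, −0.00 for Serpina1b, 0.21 for Serpina1a, 0.44 for Serpina1d, 1.09 for Serpina1e and 0.10 for Serpinc1. Serpina1e had a count of 0 in vehicle M1 and 296 in vehicle M2. Serpind1, heparin cofactor II, another thrombin inhibitor of plasma, was 6.54, 7.06, 9.11 and 12.04 CPM in vehicle F1, F2, M1 and M2 and 8.14, 9.18, 10.1 and 9.90 CPM in PLX3397 F1, F2, M1 and M2 (0.13 ± 0.13, adjusted p = 0.732). Serpind1 lies within Pi4ka, a tested gene on the other strand. Serpinf2, alpha-2-antiplasmin, was 0.184 to 1.20 CPM and 0.156 to 0.932 CPM (−0.97 ± 0.71, adjusted p = 0.607).

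**Figure D3:**
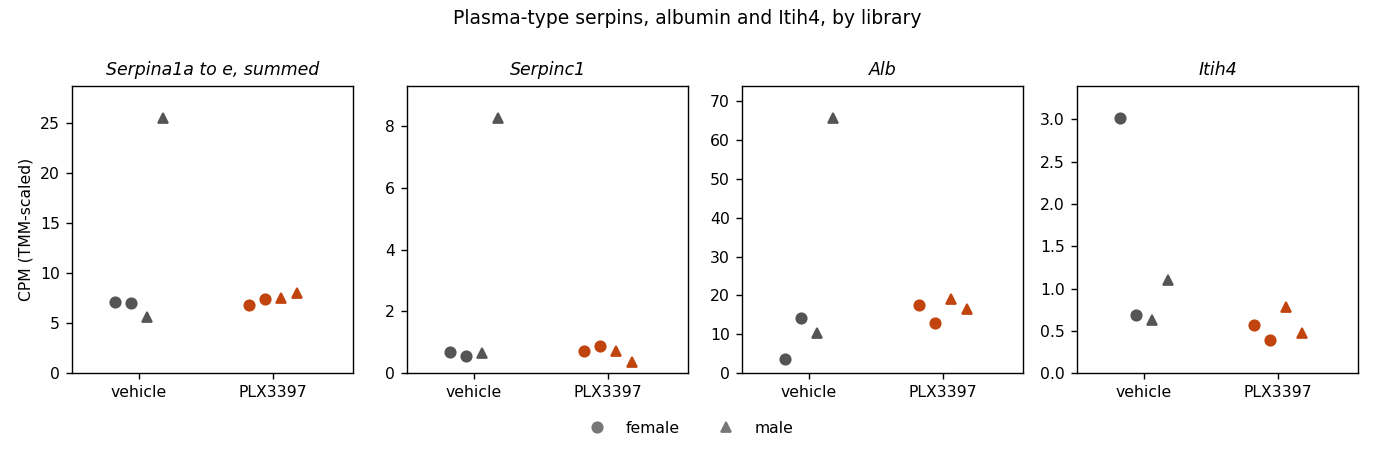
Normalised expression (CPM, vertical axes from 0) of Serpina1a to Serpina1e summed, Serpinc1, Alb and Itih4 in each hypothalamus, with circles for females and triangles for males. One vehicle male, M2, is highest for the first 3, at 25.5, 8.28 and 65.7 CPM, and one vehicle female, F1, for Itih4, at 3.02 CPM.

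The effects within each sex, each from 2 libraries against 2, had the same sign for the 5 members that rose. In females Serpina3n passed (0.72 ± 0.07, edgeR adjusted p = 0.0334), and in males Serpini1 did (0.46 ± 0.05, adjusted p = 0.0149), 1 of 29 members in each, against 0.201% and 1.02% of all tested genes. At an unadjusted p under 0.05 they were 9 members in females, against 8.77% of all genes, and 6 in males, against 12.1%. The difference between the sexes in the effect of PLX3397 was tested directly, and 0 members passed (edgeR; 0 with DESeq2 or limma; 3 at an unadjusted p under 0.05, or 10.3% of the 29, against 5.68% of all tested genes). Among all tested genes 0.00446% were called. The smallest p belonged to Itih3, which had 0.51 ± 0.10 in females and 0.01 ± 0.10 in males (difference 0.50 ± 0.14, unadjusted p = 0.0110, adjusted p = 0.767). Serpine2 had 0.17 in females and −0.19 in males (adjusted p of the difference 0.858), and Serpina3n 0.72 and 0.43 (0.858).

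**Figure D4:**
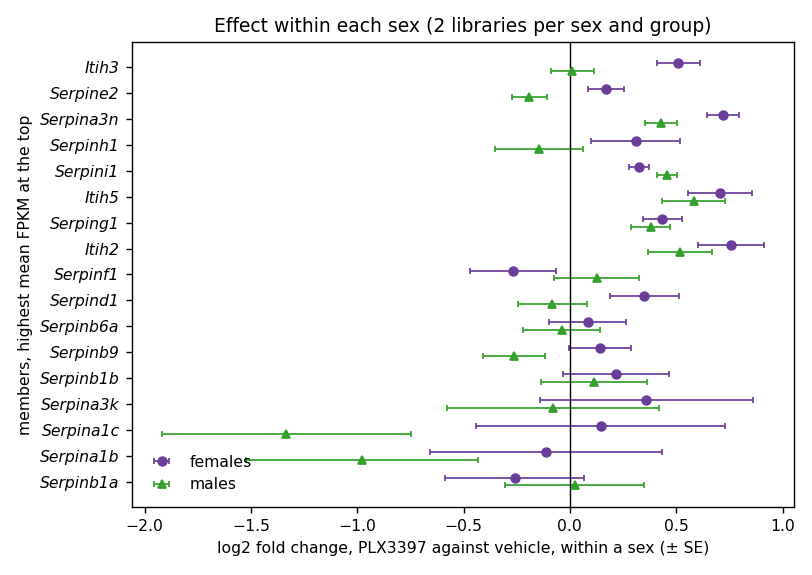
Log2 fold changes within females (circles) and within males (triangles), PLX3397 against vehicle (horizontal axis, with SE from edgeR), for 17 tested members with a mean FPKM of at least 1, ordered by level from the top. Both sexes lie to the right of 0 for Serpina3n, Serpini1, Itih5, Serping1 and Itih2, whereas Itih3 lies at 0.51 in females and 0.01 in males.

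Between females and males, with treatment in the fit, 0 of 29 members passed (edgeR; 0 with limma), against 0.0446% of all tested genes. At an unadjusted p under 0.05 there were 3, against 4.76% of all genes. Itih2 had the smallest p, with lower values in females (log2 difference of females against males −0.63 ± 0.11, adjusted p = 0.566). DESeq2 called Itih2 (−0.63, adjusted p = 0.000318) and no other member, against 0.263% of all genes tested that way. Both female values were below both male values in each group, at 12.2 and 12.6 against 18.3 and 23.4 CPM in vehicle and 21.5 and 20.3 against 26.7 and 33.1 CPM after PLX3397. The sum of the fibroblast markers was also lower in vehicle females (219 and 198 CPM) than in vehicle males (255 and 286 CPM). In PLX3397 libraries it was 307 and 266 CPM in females and 291 and 335 CPM in males, and its part in the difference was not tested. Serpini1 had a log2 difference of 0.18 ± 0.04 with higher values in females (edgeR adjusted p = 0.967; 0.124 with DESeq2).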

How the data were processed

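RNA was sequenced from 8 hypothalami after removal of ribosomal RNA and priming with random primers, per the labels' protocols. The authors deposited one table of whole-number counts per gene and FPKM values per gene, per the file headers. Build mm10 and the tools HISAT2, StringTie, bcl2fastq 2.0, limma and DESeq2 come from the submitters' processing notes, which are used here without roles. The counting tool, annotation release and strand handling were not given in the sources used here. A count of 0 is listed as an FPKM of 0.0001.

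From the counts, edgeR 4.0.16 (R 4.3.3) was run with TMM scaling and its quasi-likelihood test at the installed defaults. It covered 22423 genes whose mean FPKM reached 0.1, two-sided, with sex as a covariate and Benjamini-Hochberg adjustment over all genes tested, at a threshold of 0.05. Effects within a sex and their difference came from 4 groups that share one estimate of the spread. SE was derived as the size of the log2 fold change over the root of the F statistic. CPM use the TMM-scaled library sizes of the tested genes. Where no read was counted, the limit is 3 counts, 0.0445 to 0.0554 CPM, which covers counting error only. Replicate libraries differed by more than sampling noise. The test was tried on simulated counts.

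All 69 members have a GENCODE vM21 identifier and 60 the same coordinates there. Of them 59 have a RefSeq promoter. Alternatives were DESeq2 1.42.0, limma 3.58.1 (limma-trend on log2 of FPKM plus 0.5 or 0.1), RLE scaling, other filters, other covariates, the replicate label as a block, and libraries left out. The pair vehicle F1 and vehicle M2 was left out after the data had been seen.

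The members and lists were chosen with earlier results of these data known, so their counts are descriptions. Full values are given for members that passed and for 11 of the 12 others with the highest mean FPKM, since 1 tested member is counted but not reported here, and for each pathway list up to 4 genes with the smallest p and those called. Ambp, Tnfaip6, Gzmb, C1ra, Alb, Itih1, Itih4, the plasma serpins and the other low members were named beside these after their values were seen. Ratios to summed markers were also added then. The other marker lists gave 0 calls of 8 for tanycytes and of 10 for choroid plexus and ependyma (edgeR; 0 and 2 at an unadjusted p under 0.05).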

Additional observations from a re-analysis of the deposited data

Results flagged for a closer look

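In each group of 4 libraries the highest or lowest value of every tested member was compared with the spread of the rest (Dixon's test at the 95% level), in 58 group sets. Chance flags about 1 in 20 independent sets, and 6 stood apart. The sets share libraries and the Serpina1 copies can share reads, so the 6 flags are not independent of each other. Of these, 4 were in vehicle M2: Serpina1c at 5.58 CPM, where the next vehicle value was 1.59 CPM, Serpina1b at 7.49 CPM (next 2.50 CPM), Serpina1d at 3.30 CPM (next 0.978 CPM) and Serpinc1 at 8.28 CPM (next 0.696 CPM). The same library was highest in Alb, at 65.7 CPM. Serpinb6b, a clade B serpin, was at 2.90 CPM in vehicle M1 and at most 1.80 CPM in the other vehicle libraries. Serpinf2 was at 0.932 CPM in PLX3397 M1 and at most 0.217 CPM in the other PLX3397 libraries.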

How the results depend on the processing

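Without one library at a time 1 to 3 members passed between treatments in place of 5, while all genes called ran from 114 to 333 in place of 331. With vehicle F1 and PLX3397 M2 both left out 0 members and 73 genes passed, and with vehicle F1 and vehicle M2 both left out 0 members and 5 genes; fewer samples entered these fits. DESeq2 called 1201 genes. DESeq2, RLE scaling, both other filters, the newer edgeR dispersion step (447 genes) and both limma fits called the same 5 members, and the fit with no sex term 4 of them. The 5 kept their sign in all 19 alternatives.

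With the replicate label as a block 1 member, Itih5, and 28 genes passed. Equal numbers correlated at 0.00747 to 0.0724 in their deviations from the group means, and not every library correlated best with its own. Sex was not removed from these deviations, and equal labels share a sex. The correlations therefore cannot tell whether equal labels also share a litter or day, which the labels do not state.

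Between the sexes DESeq2 called 1 member, Itih2, in place of 0, and 59 genes in place of 10. For the difference between the sexes in the effect of PLX3397, all genes called ran from 0 to 18 with edgeR and limma and were 150 with DESeq2, in place of 1, with 0 members each time.

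Some log2 fold changes that did not pass changed sign. Without one library at a time they ran from −0.084 to 0.047 for Serpine2, −0.035 to 0.21 for Serpinh1, −0.18 to 0.082 for Serpinf1, −0.067 to 0.11 for Serpinb6a, −0.155 to 0.0203 for Serpinb9, −0.079 to 0.61 for Serpina3k and −0.88 to 0.023 for Serpina1c. Without vehicle F1 and PLX3397 M2, Serpinf1 had 0.15 and Serpinb9 0.055, and without vehicle F1 and vehicle M2 0.034 and 0.058. The cause was not tested. Depth limits the members under about 1 FPKM, whose counts were as low as 0 to 28 per library for Serpinb6c.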

Other observations

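Among the 40 members under the limit, 26 had reads, at most 36 in any library. Serpinb3b, a clade B serpin of surface epithelia, had 36 and 31 counts in PLX3397 F1 and F2 and 0 to 8 in the other 6 libraries. Serpinb3a, nearby on the same chromosome, had 19 and 17 counts in the same libraries and 0 to 8 elsewhere. Both were picked once their values had been seen. They are close copies that can share reads. In the fit with no limit on FPKM, which tested 55 members, neither passed.

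Serpinb5, which encodes maspin, a clade B serpin of epithelia, was just above the limit and showed the same female libraries high. It was at 1.03 and 0.890 CPM in PLX3397 F1 and F2 and at 0.376 to 0.474 CPM in the other 6 (edgeR adjusted p = 0.413 between treatments and 0.858 for the difference between the sexes in that effect).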
